A study of Mus musculus with 10 samples.

Results

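The genes described here are targets of the transcription factor ATF4, the regulators around it, and cytosolic aminoacyl-tRNA synthetases, followed in cultured mouse neurons after the kinase inhibitor SP600125. They are a list of 38 gene symbols chosen by name, and 37 of them could be measured among the 19938 genes of the array. Each was represented by the probe set that carries its symbol alone and has the highest mean over all arrays. Aars shares its probe set with Exosc6 and was not analysed here, and Mars is listed as Mars1. Iars has a second probe set, which changed by −0.01 on the log2 scale, against −0.09 for the one used.

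The cells were terminally differentiated neurons of the strain 129Sv-C57Bl/6, and RNA of each replicate was hybridised to 1 Affymetrix whole-transcript array. In the treated group (5 arrays, replicates a to e), neurons received SP600125, a small-molecule inhibitor of the JUN N-terminal kinases that is also known to act on other kinases, at 25 µM in 3 applications 2 hours apart. The control group (5 arrays, replicates a to e) received the solvent DMSO on the same schedule. In both groups the labels tie replicates a and b to drug batch 1 and the other 3 to drug batch 2, batches of the agent itself. The labels call the replicates biological but do not say that they were separate cultures, so p-values measure the spread between these arrays, and 5 arrays a group limit the precision of every value.

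When cells lack amino acids, or when unfolded protein builds up in the endoplasmic reticulum, stress kinases phosphorylate the translation factor eIF2, general translation slows, and the ATF4 messenger is translated more. ATF4 then pairs with C/EBP proteins on a composite DNA element and switches on amino acid importers, enzymes that make asparagine and serine, and many aminoacyl-tRNA synthetases, the enzymes that load each tRNA with its amino acid. Since ATF4 is controlled largely at translation, its messenger can stay level while its targets move. In the brain, serine made by this pathway comes largely from glia, and the messenger levels below are those of the whole culture.

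The composite element was looked for in RefSeq promoter windows (build GRCm38.p6, 250 bases before to 50 bases after each start), read as TGATGNAA on either strand, in which N is any base. Of the 38 genes, 30 had a window, and 12 of these (40%) held a match, against 4.51% of 27025 genes with a window. Since the list was chosen to hold targets of ATF4, a higher share can follow from that choice alone. Eif4ebp1, Slc7a5, Slc7a3, Slc1a5, Cars, Wars, Nars and Lars had none in the table. The stretches below, on the gene's own strand and with the match in capitals, belong to the 6 measured genes with a match and the largest absolute change after SP600125.
Vldlr (chr19:27216770-27216842, plus strand): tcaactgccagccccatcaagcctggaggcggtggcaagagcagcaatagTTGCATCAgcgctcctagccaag
Chac1 (chr2:119350992-119351071, plus strand): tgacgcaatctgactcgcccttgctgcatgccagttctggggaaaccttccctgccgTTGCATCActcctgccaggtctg
Yars (chr4:129189846-129189928, plus strand): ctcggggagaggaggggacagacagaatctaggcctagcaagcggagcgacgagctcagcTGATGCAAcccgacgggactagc
Gars (chr6:55037911-55037993, plus strand): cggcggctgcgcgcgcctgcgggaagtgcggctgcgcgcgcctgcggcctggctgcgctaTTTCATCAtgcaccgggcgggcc
Asns (chr6:7693210-7693292, minus strand): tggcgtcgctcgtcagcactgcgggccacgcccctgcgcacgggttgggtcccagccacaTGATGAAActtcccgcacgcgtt
Iars (chr13:49682077-49682159, plus strand): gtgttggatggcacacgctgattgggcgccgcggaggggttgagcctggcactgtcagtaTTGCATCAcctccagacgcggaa
The match began 200 bases before the start in Vldlr (in 1 of its windows), 193 in Chac1, 30 in Gars and 23 in Asns, and 3 bases after the start in Yars and 7 in Iars. Of all 13 matches, 8 read TTGCATCA or its reverse complement TGATGCAA. A match is a description of these letters and not evidence of binding, and no match says only that the letters are not in the window.

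On the deposited log2 values, 5 of the 37 measured genes rose, 5 fell and 27 did not pass (limma with a term for drug batch, Benjamini-Hochberg adjusted p under 0.05 over all genes). The genes that rose were Vldlr, Sesn2, Chac1, Slc7a3 and Psph, and those that fell were Slc1a5, Wars, Yars, Gpt2 and Sars. Every change was small, from −0.35 to 0.33 on the log2 scale, with a median of −0.02 that lay beside −0.03 over all genes tested. Of the 37 genes 13.5% rose and 13.5% fell, while over the whole array 46.9% of genes were called, 17.0% as rises and 29.9% as falls. An unadjusted p under 0.05 was found for 11 of the 37 and for 54.7% of all genes. In 2 of the 37 genes all SP600125 arrays lay above all DMSO arrays and in 4 below, against 6.65% and 16.4% of all genes. Compared within each drug batch, 3 lay above in both and 5 below in both, against 10.2% and 21.1% of all genes.

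The counts depended on single arrays. Of the fits that left out 1 array, 2 genes rose without DMSO b, DMSO d or SP600125 e, and 3 rose without DMSO a or any of SP600125 a to d. Falls numbered 3 without DMSO a, c or d or without SP600125 a, d or e, and 8 without SP600125 b, where 16.7% of all genes rose and 31.9% fell. Calls over the whole array also varied: without SP600125 a, 2593 of all 19938 genes rose and 5126 fell, against 3389 and 5962 with all arrays. Shares of all genes for the remaining fits without 1 array are not reported here. Without replicate b of both groups, 2 rose and 8 fell, against 17.1% and 31.6% of all genes. Vldlr, Sesn2, Slc1a5, Wars and Yars passed in all 10 of these fits. Drug batch 1 alone (2 arrays a group) gave 0 calls by limma, with 6 genes at an unadjusted p under 0.05, where 24.6% of all genes had one and 0.00502% were called. Drug batch 2 alone (3 arrays a group) gave 2 rises and 6 falls, against 11.1% and 27.3% of all genes.

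**Figure D1:**
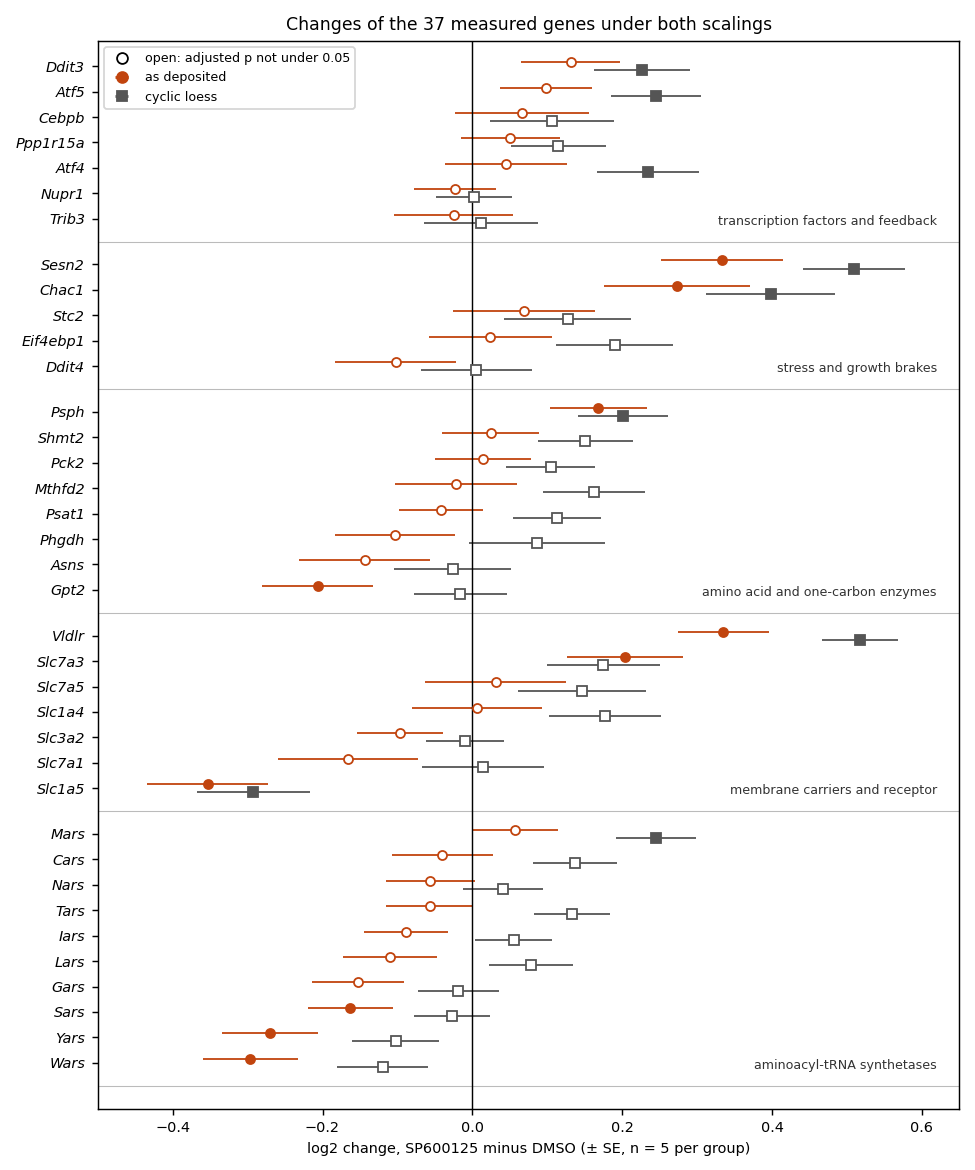
Log2 change (SP600125 minus DMSO, ± SE, n = 5 per group) of the 37 measured genes, grouped by role, from the deposited values (circles) and after cyclic loess between arrays (squares). Filled symbols passed at an adjusted p under 0.05: 5 rose and 5 fell as deposited, 8 rose and 1 fell after cyclic loess.

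The balance of rises and falls depended on how the arrays were scaled. SP600125 arrays had a narrower spread of gene values, with SDs of 1.63 to 1.71 against 1.76 to 1.84 on DMSO arrays, and genes of middle and high signal were lower as a whole. Among all genes with a mean log2 value between 8 and 9, 66.3% fell and 2.09% rose, with a median of −0.24. The 9 genes of the list in that range were Vldlr, Slc7a1, Slc1a4, Phgdh, Cars, Lars, Mars, Wars and Yars, of which 1 (Vldlr) rose and 2 (Wars and Yars) fell. After cyclic loess, which removes differences between arrays that follow the signal level, 8 of the 37 genes rose and 1 fell, with a median of 0.11 against −0.02 over all genes, and the background was 27.2% of genes called, 9.44% as rises and 17.7% as falls. Quantile normalization gave 7 rises and 1 fall (background 30.0%, with 7.51% as rises and 22.5% as falls). Centring each array on its median gave 2 rises and 12 falls (background 50.7%, with 7.52% as rises and 43.1% as falls) and moved the median of all genes from −0.03 to −0.13.

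Vldlr, Sesn2 and Slc1a5 passed in the same direction under each of these scalings. Atf4, Atf5, Ddit3 and Mars passed as rises after cyclic loess but not on the deposited values. Wars, Yars, Gpt2 and Sars did not pass after cyclic loess. After cyclic loess 6 genes (Vldlr, Sesn2, Chac1, Atf5, Cars and Mars) had all SP600125 arrays above all DMSO arrays, against 4.75% of all genes, and 0 had them all below, against 9.56%.

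**Figure D2:**
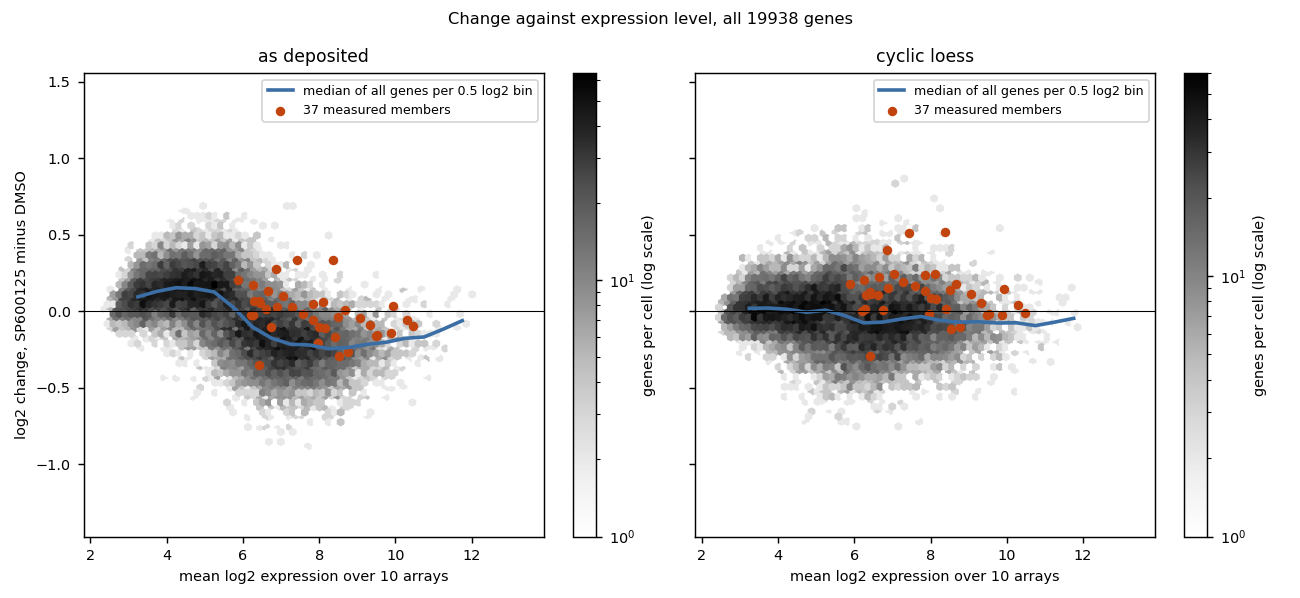
Log2 change (SP600125 minus DMSO) against mean log2 expression over 10 arrays for all 19938 genes (grey, darker where more genes lie) with their median per bin of signal (line) and the 37 measured genes (points), as deposited (left) and after cyclic loess (right). As deposited, the line dips below 0 for middle and bright genes, where many of the points lie above it. After cyclic loess the line lies near 0, and the points have a median of 0.11.

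Among the transcription factors and their feedback genes, none of 7 passed on the deposited values, and 0 had an unadjusted p under 0.05. Atf4 itself had log2 values of 7.63, 8.04, 7.86, 7.87 and 7.94 on SP600125 arrays a to e, against 7.90, 7.62, 7.80, 7.91 and 7.90 on DMSO arrays a to e. The groups overlapped throughout, with SP600125 a and DMSO b as the low arrays and SP600125 b the highest. The change was 0.04 (SE 0.08, limma adjusted p = 0.667) as deposited and 0.23 (SE 0.07, adjusted p = 0.0215) after cyclic loess.

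Ddit3, which encodes the stress factor CHOP, had 6.69, 6.74, 6.80, 6.78 and 6.59 on SP600125 arrays and 6.66, 6.50, 6.51, 6.59 and 6.69 on DMSO arrays. The groups overlapped through SP600125 e, which lay within the DMSO range. Its change of 0.13 (SE 0.07) did not pass (limma adjusted p = 0.113), while 0.23 after cyclic loess did (adjusted p = 0.0201). Atf5, a close relative of ATF4 under the same translational control, had a change of 0.10 as deposited (adjusted p = 0.197), and cyclic loess gave 0.24 (adjusted p = 0.00979).

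Trib3, a pseudokinase that ATF4 and CHOP induce and that feeds back on ATF4, had 6.23, 6.27, 6.09, 6.25 and 6.47 on SP600125 arrays and 6.12, 6.43, 6.24, 6.38 and 6.27 on DMSO arrays. The SP600125 arrays held both the lowest and the highest of these values. The change was −0.02 as deposited (limma adjusted p = 0.812), and cyclic loess gave 0.01 (adjusted p = 0.929). Cebpb, a C/EBP partner of ATF4, Nupr1, a small stress-induced nuclear protein, and Ppp1r15a, which encodes GADD34, the phosphatase subunit that restores eIF2, had changes of 0.07, −0.02 and 0.05, and none of the 3 passed under either scaling.

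**Figure D3:**
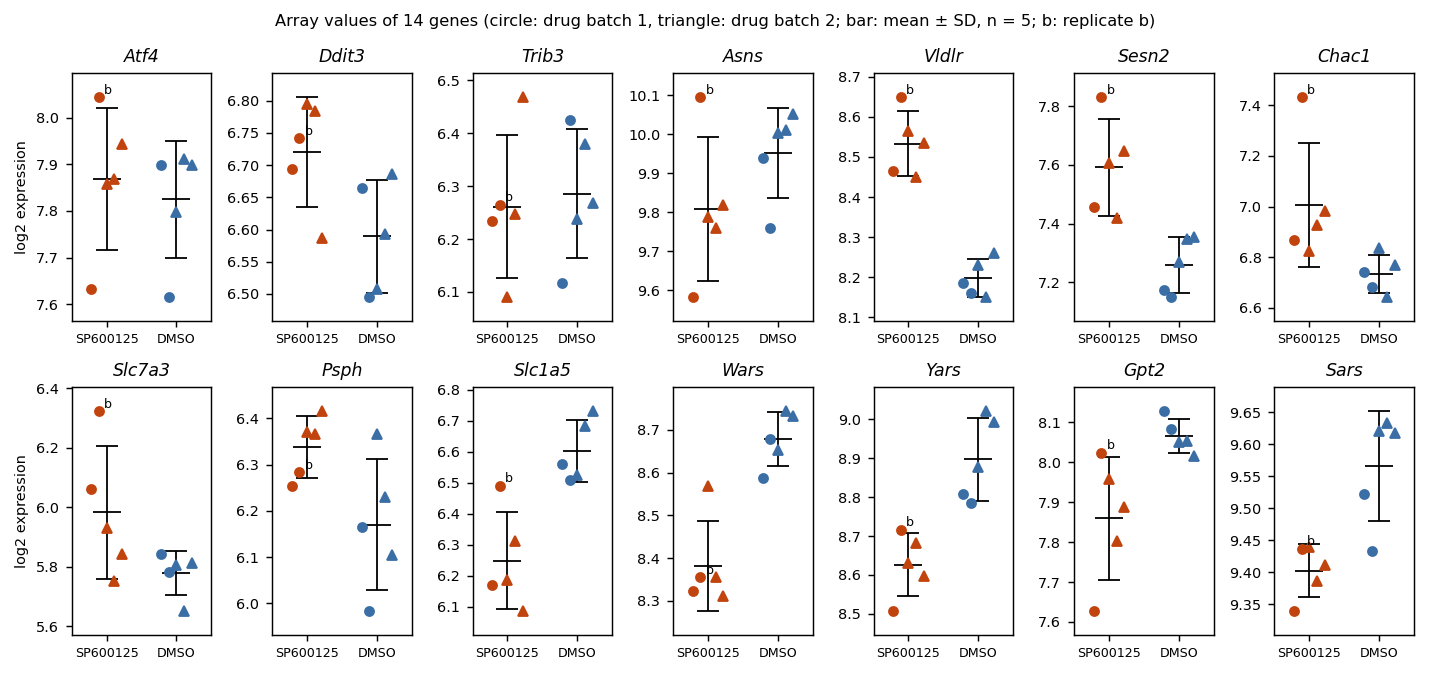
Log2 expression on each array for 14 genes, SP600125 left and DMSO right, with circles for drug batch 1, triangles for drug batch 2 and the mean ± SD (n = 5). Vldlr and Sesn2 are fully separated upward and Slc1a5, Wars and Yars downward, while the SP600125 b array (marked b) stands highest of all 10 arrays for Atf4, Asns, Vldlr, Sesn2, Chac1 and Slc7a3.

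Genes that restrain growth or redox state under stress held 2 of the rises. Sesn2 encodes sestrin 2, which holds back the growth kinase complex mTORC1 when leucine is low. It had 7.46, 7.83, 7.61, 7.42 and 7.65 on SP600125 arrays and 7.17, 7.15, 7.27, 7.35 and 7.35 on DMSO arrays. Every SP600125 array lay above every DMSO array, and the rise was 0.33 (SE 0.08, 1.26-fold, limma adjusted p = 0.00513). Drug batch 1 gave 0.48, drug batch 2 gave 0.23, and cyclic loess over all arrays 0.51.

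Chac1 encodes an enzyme that breaks down glutathione and is a known target of ATF4. It had 6.87, 7.43, 6.83, 6.93 and 6.98 on SP600125 arrays and 6.74, 6.68, 6.84, 6.64 and 6.77 on DMSO arrays. SP600125 b stood far above the rest, and only the highest DMSO array (c) reached into the SP600125 range. The rise was 0.27 (SE 0.10, 1.21-fold, limma adjusted p = 0.0324), 0.16 without SP600125 b (adjusted p = 0.0499), and cyclic loess gave 0.40 (adjusted p = 0.0052). It did not pass without DMSO a, b or d or without SP600125 d or e (adjusted p up to 0.074).

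The other 3 of this group did not pass under either scaling. Ddit4, which encodes the mTORC1 inhibitor REDD1, had a change of −0.10 (limma adjusted p = 0.306), Eif4ebp1, a repressor of cap-dependent translation, of 0.02 (adjusted p = 0.824), and Stc2, the secreted glycoprotein stanniocalcin 2, of 0.07 (adjusted p = 0.567).

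Enzymes of amino acid and folate metabolism gave 1 rise and 1 fall among 8. Asns, asparagine synthetase, is a textbook ATF4 target and had 9.58, 10.09, 9.79, 9.76 and 9.82 on SP600125 arrays against 9.94, 9.76, 10.004, 10.01 and 10.05 on DMSO arrays. SP600125 b was the highest array of all and DMSO b the lowest of the DMSO arrays, and the other SP600125 arrays lay below the other DMSO arrays. The change of −0.14 (SE 0.09) did not pass (limma adjusted p = 0.189). Without SP600125 b it passed at −0.24 (adjusted p = 0.00484), and after cyclic loess it was −0.03 (adjusted p = 0.833).

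Psph, the phosphatase of the last step of serine synthesis, rose by 0.17 (SE 0.06, limma adjusted p = 0.0453), and by 0.20 after cyclic loess (adjusted p = 0.0258). Its values were 6.25, 6.28, 6.37, 6.37 and 6.42 on SP600125 arrays and 6.17, 5.98, 6.37, 6.23 and 6.11 on DMSO arrays. DMSO c overlapped the SP600125 range, and the call was lost in 8 of the 10 fits without 1 array (all but those without DMSO a or c), where the changes of all 10 ran from 0.14 to 0.21. Phgdh and Psat1, which catalyse the preceding steps of the same pathway, had changes of −0.10 (adjusted p = 0.299) and −0.04 (adjusted p = 0.555), and neither passed. Both turned positive after cyclic loess, at 0.09 for Phgdh (adjusted p = 0.512) and 0.11 for Psat1 (adjusted p = 0.168), and without SP600125 b the same scaling made Phgdh a called rise of 0.19.

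Gpt2, the mitochondrial alanine aminotransferase, fell by 0.21 (SE 0.07, limma adjusted p = 0.0347). It had 7.63, 8.02, 7.96, 7.80 and 7.89 on SP600125 arrays and 8.13, 8.08, 8.05, 8.05 and 8.02 on DMSO arrays. SP600125 a lay lowest and SP600125 b just reached the lowest DMSO array. The call was lost without any 1 of DMSO a, b, c and d or SP600125 a, d and e (adjusted p up to 0.1), and after cyclic loess the change was −0.02 (adjusted p = 0.871). Shmt2 and Mthfd2, mitochondrial folate enzymes that take up serine, and Pck2, mitochondrial phosphoenolpyruvate carboxykinase, had changes of 0.02, −0.02 and 0.01, and none passed under either scaling.

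Among 7 membrane proteins the largest changes ran in opposite directions. Vldlr encodes the very low density lipoprotein receptor, which also receives reelin signals in neurons. It had 8.47, 8.65, 8.57, 8.45 and 8.54 on SP600125 arrays and 8.19, 8.16, 8.23, 8.15 and 8.26 on DMSO arrays. The groups did not overlap, and the rise was 0.33 (SE 0.06, 1.26-fold, limma adjusted p = 0.000879). Drug batch 1 gave 0.38, drug batch 2 gave 0.30, and cyclic loess over all arrays 0.52.

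Slc1a5, the glutamine and neutral amino acid exchanger ASCT2, had 6.17, 6.49, 6.19, 6.31 and 6.09 on SP600125 arrays and 6.56, 6.51, 6.53, 6.68 and 6.73 on DMSO arrays. All SP600125 arrays lay below all DMSO arrays, with SP600125 b closest. It fell by 0.35 (SE 0.08, 1.28-fold lower, limma adjusted p = 0.00348), and by 0.29 after cyclic loess (adjusted p = 0.0122). Its relative Slc1a4 (ASCT1), which carries serine and alanine, had a change of 0.01 (adjusted p = 0.958).

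Slc7a3, a carrier of arginine and other cationic amino acids, had 6.06, 6.32, 5.93, 5.75 and 5.84 on SP600125 arrays and 5.84, 5.78, 5.81, 5.65 and 5.81 on DMSO arrays. SP600125 d lay within the DMSO range, SP600125 e was level with the highest DMSO array and the other 3 lay above it, and drug batch 1 gave 0.38 where drug batch 2 gave 0.09. The rise of 0.20 (SE 0.08, limma adjusted p = 0.0441) was lost without DMSO a, b or d or SP600125 a, b, c or e (adjusted p up to 0.106) and after cyclic loess (0.17, adjusted p = 0.0994). The related carrier Slc7a1 had a change of −0.17 (adjusted p = 0.156), and −0.26 without SP600125 b, where it passed (adjusted p = 0.00875).

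Slc7a5 (LAT1) and Slc3a2 (4F2hc) pair into the main importer of leucine and other large neutral amino acids. Slc7a5 had 9.78, 10.34, 9.94, 9.74 and 9.93 on SP600125 arrays and 9.86, 9.91, 9.94, 9.94 and 9.92 on DMSO arrays. The DMSO arrays were tight and the SP600125 arrays spread to both sides of them, with SP600125 b at the top. Neither partner passed (0.03, limma adjusted p = 0.802 for Slc7a5, and −0.10, adjusted p = 0.176 for Slc3a2).

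Of 10 measured aminoacyl-tRNA synthetases, 3 fell and none rose, and 9 had a change below 0, with a median of −0.10. The share that fell (30%) was close to the 29.9% of all genes but below the shares at the levels of these 10 genes. Of all genes 60.6% fell at a mean log2 value of 7 to 8 and 66.3% at 8 to 9. At 9 to 10 the share was 64.4%, and at 10 to 11 it was 54.5%. The difference was not tested. After cyclic loess 1 of the 10 rose, none fell and 6 had a change above 0, with a median of 0.05. Wars, which charges tryptophan, had 8.32, 8.36, 8.57, 8.36 and 8.31 on SP600125 arrays and 8.59, 8.68, 8.65, 8.74 and 8.73 on DMSO arrays. All SP600125 arrays were lower, SP600125 c by the least, and it fell by 0.30 (SE 0.06, 1.23-fold lower, limma adjusted p = 0.00235). Yars, which charges tyrosine, had 8.51, 8.72, 8.63, 8.68 and 8.60 on SP600125 arrays and 8.81, 8.78, 8.88, 9.02 and 8.99 on DMSO arrays, again without overlap, and it fell by 0.27 (SE 0.06, 1.21-fold lower, adjusted p = 0.00413). Neither passed once cyclic loess was used, with −0.12 (adjusted p = 0.156) for Wars and −0.10 (adjusted p = 0.205) for Yars.

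Sars, the seryl-tRNA synthetase, fell by 0.16 (SE 0.06, limma adjusted p = 0.0296), with 9.34, 9.44, 9.44, 9.39 and 9.41 on SP600125 arrays and 9.52, 9.43, 9.62, 9.63 and 9.62 on DMSO arrays. DMSO b alone overlapped. The call was lost without DMSO a, c, d or e or SP600125 a, d or e (adjusted p up to 0.0691), and the change was −0.03 after cyclic loess. Gars, for glycine, had all SP600125 arrays below all DMSO arrays but did not pass (−0.15, adjusted p = 0.0538); without SP600125 b it did (−0.19, adjusted p = 0.0187).

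The other 6 synthetases lay closer to 0. Mars, for methionine, was the only one above 0 (0.06, limma adjusted p = 0.432), and it passed as a rise after cyclic loess (0.24, adjusted p = 0.00551). Cars, Nars, Tars, Iars and Lars, for cysteine, asparagine, threonine, isoleucine and leucine, had changes of −0.04 to −0.11 as deposited and of 0.04 to 0.14 after cyclic loess, and none of these 5 passed under either scaling.

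Changes were also set beside the promoter matches. Of the 11 measured genes with a match to the element printed above, 2 rose (Vldlr and Chac1) and 1 fell (Yars), with a median change of −0.02. Of the 18 with a window and no match, 2 rose and 2 fell, with a median of 0.03, while 17.0% of all genes rose and 29.9% fell. After cyclic loess the medians were 0.05 with a match and 0.12 without, so that with a match the sign turned. The difference between the medians was not tested.

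SP600125 b stood apart from the other SP600125 arrays over these genes. It was above SP600125 a for 33 of the 37 genes (89.2%, against 57.1% of all genes), by 0.18 at the median against 0.03. After cyclic loess the median difference was smaller, at 0.08 against 0.005 over all genes. SP600125 a was itself low, with the lowest mean of the 37 genes of all 10 arrays (7.75). That mean was 7.95 on SP600125 b, the highest of all, and 7.87, 7.80 and 7.84 on SP600125 c, d and e. SP600125 b was the highest of the SP600125 arrays for 19 genes (51.4%, against 31.2% of all genes), and for 17 (45.9%, against 26%) after cyclic loess. It was the highest of all 10 arrays for 12 genes (32.4%, against 10.2% of all genes), and for 16 (43.2%, against 9.04%) after cyclic loess. Among them Slc7a5 (10.34), Chac1 (7.43), Stc2 (6.83), Slc1a4 (8.93), Mthfd2 (7.88) and Atf4 (8.04) were carriers, stress genes, an enzyme and the factor itself. The share differed by role: as deposited it was 60% of the stress and growth genes and 57.1% of the membrane proteins. It was 25% of the amino acid and folate enzymes, 20% of the synthetases and 14.3% of the transcription factors and feedback genes. The 10 pan-neuronal markers were higher on SP600125 b than on SP600125 a as well, by 0.59 at the median in all 10, while the median of DMSO b minus DMSO a was −0.33. So were 8 of 10 astrocyte, 7 of 9 oligodendrocyte and 7 of 10 fibroblast and endothelial markers. By contrast 0 of 10 neural progenitor markers (median −0.10), 4 of 10 microglia and 3 of 10 pluripotency markers were higher on SP600125 b. The part of these differences in the values above was not tested. Of the 37 genes, Phgdh, with 7.79 on SP600125 b and 8.20 on SP600125 a, was among the 4 that were lower on SP600125 b.

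**Figure D4:**
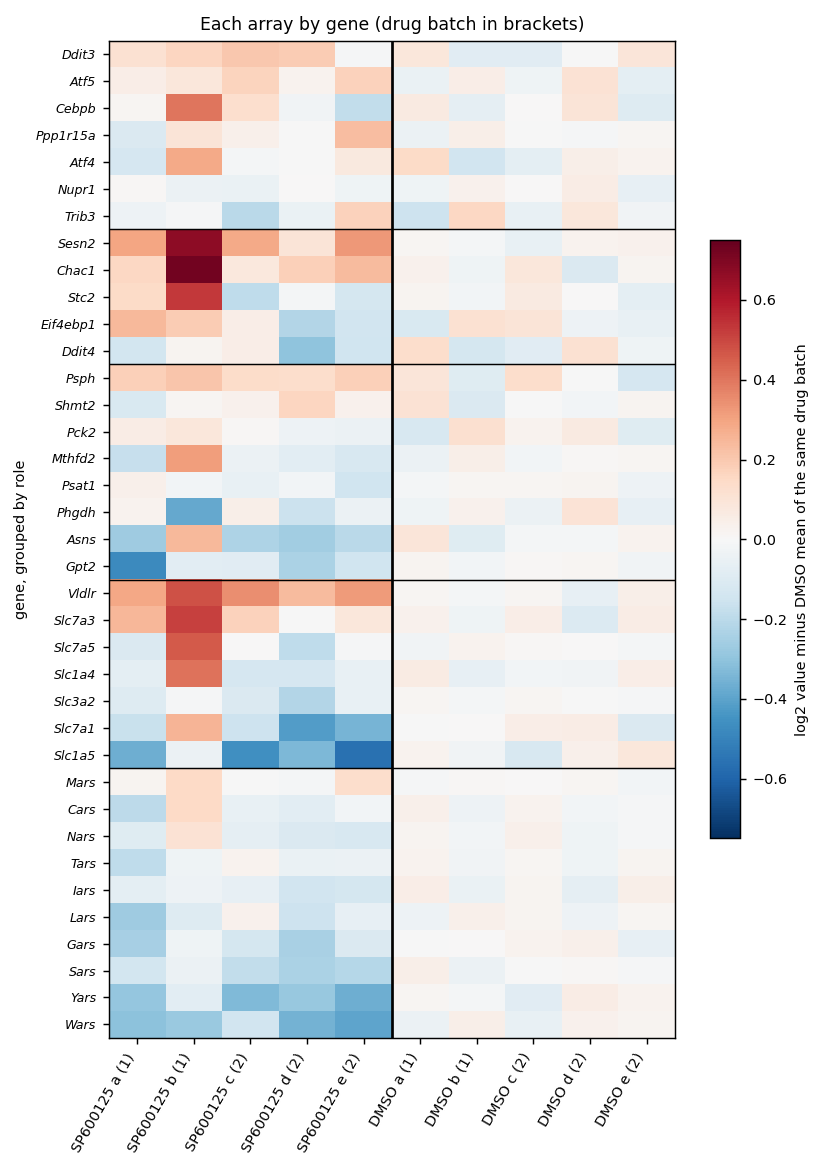
Each array's log2 value minus the DMSO mean of the same drug batch for the 37 measured genes, grouped by role, with SP600125 arrays left of the line and DMSO arrays right (red higher, blue lower). Vldlr and Sesn2 are red and Wars and Yars blue on all SP600125 arrays, and the SP600125 b column is red for Chac1, Stc2, Slc7a5 and Slc1a4, where the other SP600125 columns are paler or blue.

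No difference between drug batches was called. The interaction of treatment and batch was called for 0 of the 37 genes and 0% of all genes (limma), and 2 genes (Stc2 and Eif4ebp1) had an unadjusted p under 0.05, where 9.29% of all genes did. Stc2 had 0.34 in drug batch 1 and −0.11 in drug batch 2 (limma interaction, unadjusted p = 0.0124, adjusted p = 0.504). Eif4ebp1 had 0.22 in drug batch 1 and −0.11 in drug batch 2 (limma interaction, unadjusted p = 0.0438, adjusted p = 0.53). Drug batch 1 holds the SP600125 b array.

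Other genes of the pathway were taken from lists by role, to be read beside the 17.0% of all genes that rose and 29.9% that fell as deposited, and the 9.44% and 17.7% after cyclic loess. Falls as deposited were more frequent still among brighter genes, at 60.6% of all genes with a mean log2 value of 7 to 8 and 66.3% at 8 to 9. The lists overlap, so their counts are not of separate genes. Mthfd1l is tied to ATF4 and a folate enzyme, and Slc38a2, Slc7a11 and Slc6a9 are tied to ATF4 and transporters. Slc1a2 and Slc1a3 among the transporters and Aldh1l1 among the folate enzymes are also astrocyte markers. Of 24 further genes tied to ATF4, 1 rose, 4 fell and 19 did not pass, with a median of −0.04, so 4.17% rose and 16.7% fell. Fgf21, a stress hormone, rose by 0.28 (limma adjusted p = 0.00491), and Ero1a, an oxidase of the endoplasmic reticulum, fell by 0.40 (adjusted p = 0.000364), with Gadd45a, a growth arrest gene, at −0.34 (adjusted p = 0.00121) and Sqstm1, the autophagy receptor p62, at −0.32 (adjusted p = 0.00103). After cyclic loess 6 of the 24 rose and 3 fell, and Fgf21 did not pass (0.12, adjusted p = 0.186). Atf3, another stress factor of the pathway, had 0.19 as deposited (adjusted p = 0.077), and cyclic loess gave 0.35 (adjusted p = 0.00624). Without SP600125 b, 2 of the 24 rose and 6 fell.

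Synthetases outside the main list held falls and no rise on the deposited values. Of 11 other cytosolic synthetases and proteins of their complex, 8 fell (72.7%, against 29.9% of all genes) and none rose (median −0.22). At the mean log2 values of these 11, between 6 and 10, shares by level ran from 41.1% to 66.3% of all genes. Hars, for histidine, fell by 0.43 (limma adjusted p = 0.00071), Eef1e1, a scaffold of the complex, by 0.42 (adjusted p = 0.00055), and Farsb, a subunit for phenylalanine, by 0.37 (adjusted p = 0.000713). Of 16 mitochondrial synthetases, 8 fell (50%) and none rose (median −0.17), led by Rars2 (−0.41), Yars2 (−0.39) and Nars2 (−0.35). After cyclic loess 3 of the 11 fell (27.3%, against 17.7% of all genes) and 1 rose (Eprs, for glutamate and proline, at 0.17), and 7 of the 16 fell (43.8%) and none rose. Whether the synthetases of the main list and these 2 lists differ was not tested.

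Upstream of ATF4, 10 of 14 genes for eIF2, its kinases, its exchange factor and regulators of these fell (71.4%, against 29.9% of all genes) and none rose (median −0.25). Impact, Gcn1 and Ppp1r15b are the regulators among the 10. Subunits of the exchange factor eIF2B led, with Eif2b3 at −0.59 (SE 0.09, limma adjusted p = 0.000347) and Eif2b5 at −0.39 (SE 0.06, adjusted p = 0.000338), followed by Impact, an inhibitor of the amino acid sensor GCN2, at −0.38 (adjusted p = 0.000478). The kinases Eif2ak3 (PERK) and Eif2ak4 (GCN2) fell by 0.26 (adjusted p = 0.0259) and 0.25 (adjusted p = 0.0137). After cyclic loess 3 of the 14 fell (21.4%, against 17.7% of all genes: Eif2b3 at −0.44, Eif2b5 at −0.23 and Impact at −0.25), and neither kinase passed.

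Of 26 other amino acid transporters, 2 rose (7.69%) and 14 fell (53.8%, against 29.9% of all genes), with a median of −0.19. The neuronal glutamate transporter Slc1a1 fell by 0.76 (SE 0.10, limma adjusted p = 0.000189), Slc7a14 by 0.70 (adjusted p = 0.000564) and Slc7a8 (LAT2), another partner of Slc3a2, by 0.69 (adjusted p = 0.000433), and these 3 also fell after cyclic loess (−0.67, −0.53 and −0.62). Over the list cyclic loess gave 6 rises and 6 falls (23.1% each, against 9.44% and 17.7% of all genes). Of 12 other serine, glycine and folate enzymes, 6 fell (50%) and none rose, led by Mtr, methionine synthase, at −0.47 (adjusted p = 0.00203), Shmt1, the cytosolic counterpart of Shmt2, at −0.33 (adjusted p = 0.00104), and Mthfd1l at −0.27 (adjusted p = 0.00974). After cyclic loess 2 of the 12 fell (16.7%).

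The ATF6 and XBP1 arms of the unfolded protein response, which run beside ATF4, held 12 falls and no rise among 18 genes (median −0.25). The 66.7% that fell lay above the 29.9% of all genes. At the mean log2 values of these 18, between 6 and 11, shares by level ran from 41.1% to 66.3% of all genes. Xbp1 fell by 0.39 (limma adjusted p = 0.000259), the chaperone Hyou1 by 0.37 (adjusted p = 0.000355) and the chaperone Hspa5 (BiP) by 0.31 (adjusted p = 0.00191), and after cyclic loess 5 of the 18 fell (27.8%, against 17.7% of all genes) and 1 rose.

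**Figure D5:**
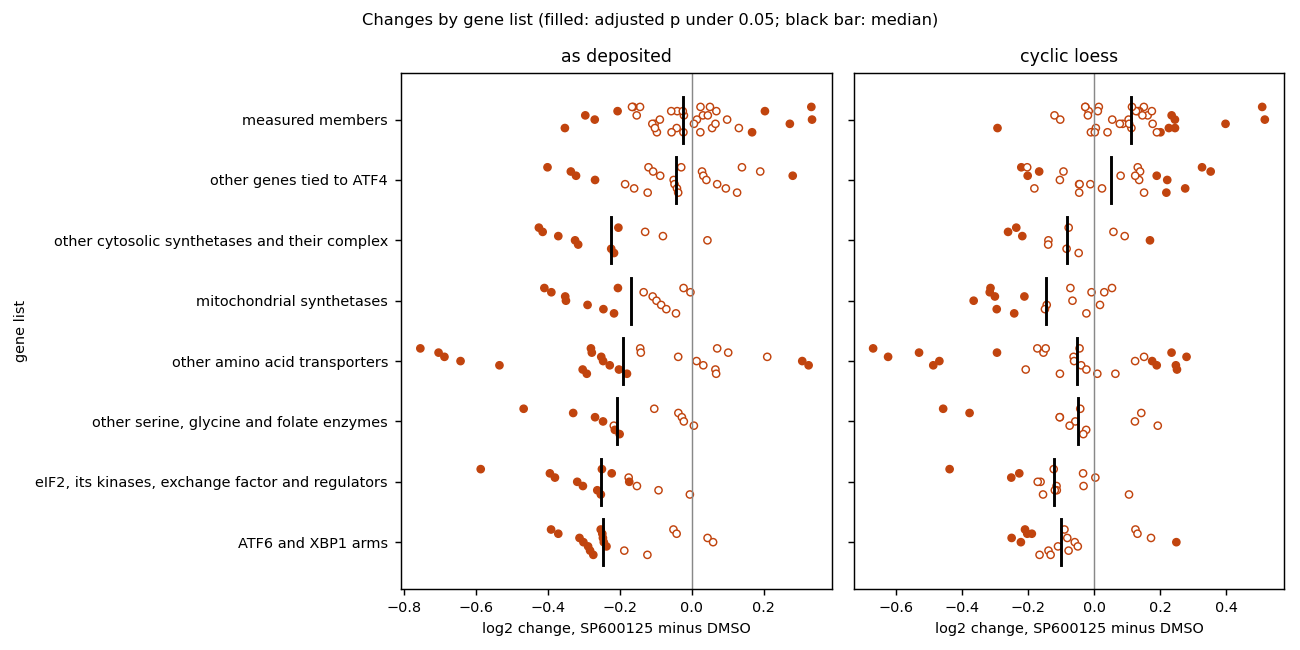
Log2 change (SP600125 minus DMSO) of each gene (points, filled where the adjusted p was under 0.05) by gene list, as deposited (left) and after cyclic loess (right), with the list median as a bar. The median of the 37 measured genes is −0.02 as deposited and 0.11 after cyclic loess, and those of the lists below run from −0.25 to −0.04 and from −0.15 to 0.05.

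All 10 pan-neuronal markers had a mean above the median of all genes (5.96), but so did most markers of astrocytes (8 of 10), the oligodendrocyte lineage (7 of 9), neural progenitors (9 of 10) and fibroblasts and endothelium (7 of 10). Neuronal messengers were thus found beside those of other cell types, and their shares cannot be read from these levels. Of the microglia and macrophage markers 0 of 10 lay above it, and of the pluripotency markers 2 of 10. Of the pan-neuronal markers 9 fell (median −0.46), with array means of 8.83 to 9.38 after SP600125 and 9.17 to 9.52 after DMSO. Of the astrocyte markers 2 rose and 5 fell, with array means of 7.94 to 8.06 and 8.05 to 8.13. Of the oligodendrocyte, progenitor and fibroblast and endothelial markers 5, 2 and 4 fell and none rose, and of the microglia and pluripotency markers 4 and 4 rose and none fell, while 17.0% of all genes rose and 29.9% fell. After cyclic loess falls numbered 7 among pan-neuronal, 3 among astrocyte, 3 among oligodendrocyte, 1 among progenitor and 4 among fibroblast and endothelial markers, and rises 2 among astrocyte, 1 among progenitor, 1 among microglia and 4 among pluripotency markers. Under that scaling 9.44% of all genes rose and 17.7% fell. In bulk RNA, fewer cells of a type and less RNA per cell cannot be told apart, and the part of either in the changes above was not tested. Correlations between arrays were 0.987 to 0.992 within SP600125, 0.990 to 0.993 within DMSO and 0.976 to 0.990 between them.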

How the data were processed

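The deposited values were log2 expression per probe set, with 35556 probe sets on each of 10 arrays. The submitters' processing notes name oligo 1.14.0 as the authors' tool, and how it corrected background, normalized and summarized is not given in the sources read. The log2 scale was read from the deposited values (1.90 to 13.8). Gene symbols came from the platform annotation: 21789 probe sets carried 1 symbol, 1621 several and 12146 were unnamed there. Changes were fitted with limma 3.58.1 in R 4.3.3 (lmFit, eBayes, two-sided) over 19938 genes with treatment and drug batch as terms (7 residual degrees of freedom). Alternatives were 4 scalings of the arrays, other covariates, batches, probe sets, filters and variance models, and leaving out arrays; 2 of them, both without replicate b arrays, were chosen after seeing the data. The fit was tested on simulated data.

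The members and gene lists were chosen with earlier results of these data known. All members are named. By rule, Atf4, Ddit3, Trib3, Asns and Chac1 are given array by array, as would be any member called with an absolute change of 0.4, of which there was none; the other genes shown array by array, and Fgf21, Atf3, Eprs, Eif2ak3 and Eif2ak4, were chosen after their values were seen. Each pathway list names its 3 largest called changes. Some genes of the pathway and marker lists are not reported here.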

Additional observations from a re-analysis of the deposited data

Results flagged for a closer look

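With 74 groups of 5 arrays examined and about 1 in 20 marked by chance, 3 had an end array far from the others. Chac1 stood at 7.43 on SP600125 b, where the next highest SP600125 array was at 6.98. Nars stood at 10.43 on SP600125 b, with the next at 10.25. Wars stood at 8.57 on SP600125 c, with the next at 8.36.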

How the results depend on the processing

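Of the members, 5 rose and 5 fell on the deposited values. Rises numbered 2 after median centring, 8 after cyclic loess, 3 without the batch term, 0 in drug batch 1, 2 in drug batch 2, 3 with array weights, 2 without replicate b of both groups and 9 after cyclic loess without SP600125 b. Falls numbered 1 after quantile normalization, 12 after median centring, 1 after cyclic loess with or without SP600125 b, 3 after centring on named genes, 0 in drug batch 1, 8 with array weights and 8 without replicate b of both groups. Leaving out 1 array at a time gave 2 to 5 rises and 3 to 8 falls. With the replicate letter as a block (replicate block), 3 rose and 3 fell, and the calls of Psph, Slc7a3, Gpt2 and Sars were lost. Shares of all genes called are not reported here without the batch term, with array weights or after centring on named genes. They are also not reported with the replicate block or for cyclic loess without SP600125 b. Whether these counts follow the whole array, and the cause of these shifts, was not tested. The replicates share only a letter: correlations of same-letter deviations from group means ran from −0.21 to 0.10, and no letter matched its own best. Phgdh turned to a called rise of 0.19 after cyclic loess without SP600125 b. No member had a called interaction as deposited, after quantile normalization or cyclic loess, or without any 1 array. The deposited values give no background signal, so how far it compresses small changes was not tested.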
